A study of Mus musculus with 6 samples.

Results

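Forkhead genes of the C, D, E, F and L classes were examined in branchial arch 1 of the mouse embryo, the embryonic swelling that forms the jaws. The 9 genes were chosen by name (Foxc1, Foxc2, Foxd1, Foxd2, Foxe1, Foxf1, Foxf2, Foxl1 and Foxl2), and 8 of them had at least 1 probe set, the group of array oligonucleotides that reports 1 transcript, with that gene as its only symbol. These 8 genes had 13 of the 45101 probe sets and were 8 of the 18194 genes tested, each gene being read through its brightest probe set by mean over all arrays. Foxe1 was not analysed here.

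All embryos were at embryonic day 11.5 and carried the genotype Ezh2lox/lox, in which the gene for the catalytic subunit of Polycomb repressive complex 2 can be deleted by Cre recombinase. For the 3 labelled-control arrays the labels name no Cre. For the 3 labelled-mutant arrays they give Wnt1Cre Ezh2lox/lox, a genotype in which the Wnt1 promoter drives Cre in the neural crest lineage and the other cells of the arch keep the gene. The labels call the arrays of a group biological replicates and say that each embryo gave 1 arch, but not whether an array holds 1 embryo or a pool. The question is which genes need Ezh2 in crest-derived cells. A change is the labelled-mutant mean minus the labelled-control mean of the log2 signals, with limma's standard error (SE) and Benjamini-Hochberg adjusted p over all genes, and a gene passed at an adjusted p under 0.05.

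The groups are named by their labels, because not every check of the labels came out as the genotype would have it. Ezh2 itself read 11.63 ± 0.15 (SD, n = 3) in labelled-control arrays and 11.66 ± 0.01 (SD, n = 3) in labelled-mutant arrays, a change of 0.03 (limma, adjusted p = 0.906). Where this probe set lies relative to the deleted exons was not tested, so that whether it reads the deletion is not known. Hoxa9, a gene that Polycomb complexes keep silent in the head, had a mean of 11.28 where labelled control and 4.21 where labelled mutant, the opposite of the order that loss of Polycomb repression would give. An exchange of the 2 labels is possible and was not tested. It would turn the sign of every change below, and Foxf2 would then be higher in the mutant arches. Xist read 5.62 and 13.03 and the Y-linked Kdm5d 9.18 and 2.95, labelled control given before labelled mutant, so that sex pattern and label cannot be told apart. Arrays of the same group correlated at 0.995 to 0.998 over all genes, and arrays of different groups at 0.988 to 0.992.

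Forkhead proteins bind DNA through a winged-helix domain, and in the arch several of them are expressed in domains of neural crest mesenchyme. Foxf1, Foxf2 and Foxd1 respond to Hedgehog signals sent by the neighbouring epithelium, and Foxc1 and Foxc2 act in cranial mesenchyme and in vessels. Foxf1, Foxc2 and Foxl1 lie together in the genome, and Foxf2 and Foxc1 lie together elsewhere with Foxq1. Many such genes start in CpG-rich sequence, the kind of promoter at which Polycomb complex 2 is found.

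Promoter sequence was at hand for 5 of the 9 genes, Foxc1, Foxd1, Foxd2, Foxf2 and Foxl2, from RefSeq on GRCm38.p6. In the 250 bases before the start site the number of CpG dinucleotides was 29 for Foxc1, 22 for Foxl2, 21 for Foxf2, 16 for Foxd2 and 12 for Foxd1, against a median of 6 over 32851 windows of that length. Of the 5, 4 had both a GC content of at least 50% and an observed over expected CpG ratio of at least 0.6, as did 31.0% of all windows, and Foxd1 lay at 0.5998. The 3 windows printed here, with each CpG in capitals, are Foxf2, the gene that passed the test, Foxl2, whose window also lies before the start of the noncoding gene Foxl2os, and Foxd1, the sparsest of the 5. Their positions are Foxf2 at chr13:31625566-31625815, Foxl2 at chr9:98955357-98955606 and Foxd1 at chr13:98353995-98354244, all on the plus strand and 5′ to 3′.
Foxf2: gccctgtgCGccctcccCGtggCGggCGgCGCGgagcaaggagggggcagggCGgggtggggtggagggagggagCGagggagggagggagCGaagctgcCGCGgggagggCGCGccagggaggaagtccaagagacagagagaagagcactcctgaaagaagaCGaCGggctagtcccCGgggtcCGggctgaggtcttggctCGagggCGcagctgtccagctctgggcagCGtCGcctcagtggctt
Foxl2: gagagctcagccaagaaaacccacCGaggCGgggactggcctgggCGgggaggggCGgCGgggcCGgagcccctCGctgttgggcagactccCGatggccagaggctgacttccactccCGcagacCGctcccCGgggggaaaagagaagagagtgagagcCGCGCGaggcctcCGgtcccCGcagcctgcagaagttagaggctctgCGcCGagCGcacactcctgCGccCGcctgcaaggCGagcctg
Foxd1: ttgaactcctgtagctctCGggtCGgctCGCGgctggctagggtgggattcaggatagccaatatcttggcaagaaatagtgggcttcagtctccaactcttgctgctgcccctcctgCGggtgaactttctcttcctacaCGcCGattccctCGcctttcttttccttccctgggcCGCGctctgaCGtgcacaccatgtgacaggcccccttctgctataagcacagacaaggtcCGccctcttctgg
The longest run without a CpG was 26 bases for Foxl2, 49 for Foxf2 and 86 for Foxd1. The letters GACCACCCA, a consensus for the Hedgehog effectors of the Gli family, were in 0 of the 5 windows on either strand and in 0.225% of all windows. The forkhead core letters GTAAACA were also in 0 of the 5 and in 3.17% of all windows.

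Of the 8 genes, Foxf2 alone passed, and it was lower in the labelled-mutant arches. Foxc2 was higher in every labelled-mutant array but did not pass, and the changes of the other 6 ranged from -0.49 to 0.17. The share that passed was 12.5%, where 5.53% of all genes did (1.23% higher and 4.3% lower). Each array was also centred on the median of its gene values. This turned the split over all genes from 224 higher and 783 lower into 479 higher and 675 lower. The groups did not overlap for 2 of the 8 genes, Foxf2 and Foxc2, against 24.9% of all genes. At an unadjusted p under 0.05 there were 4 of 8, namely Foxc2, Foxd1, Foxf1 and Foxf2, against 18.7% of all genes. The sign was negative for 6 of 8, beside 8131 of all 18194 genes, and the median change was -0.23 beside 0.02 over all genes. In whole arches, fewer cells of a type and less RNA per cell cannot be told apart.

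**Figure D1:**
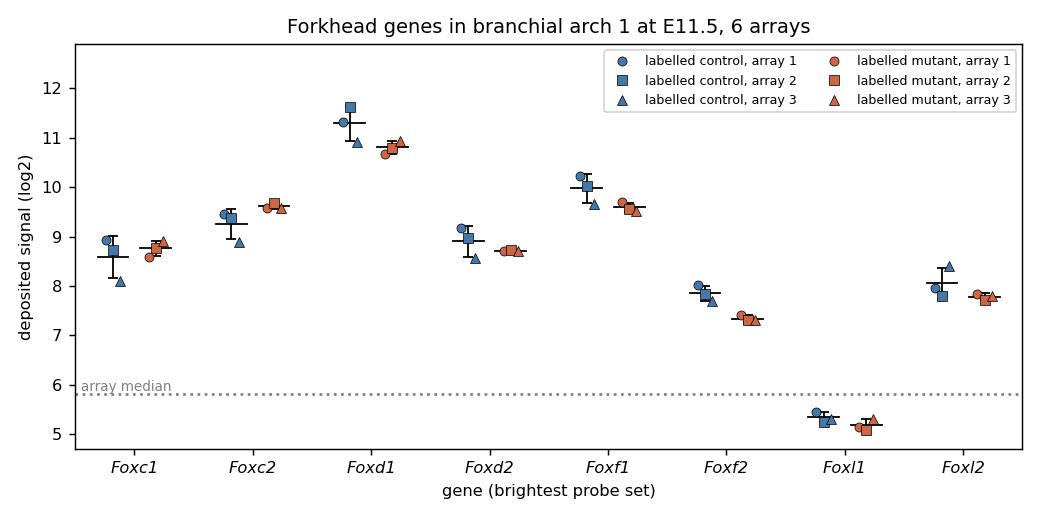
Deposited log2 signal (vertical axis) of the brightest probe set of each of the 8 measured forkhead genes, with 1 symbol per array, the mean as a bar and the SD as an error bar (n = 3 per group). The groups separate for Foxf2 and Foxc2, labelled-control array 3 (blue triangle) is the lowest labelled-control array for 6 genes, and Foxl1 alone lies below the array median of 5.81.

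Foxf2, needed for closure of the palate, read 8.01, 7.84 and 7.70 in the labelled-control arrays and 7.41, 7.30 and 7.30 in the labelled-mutant arrays. All labelled-mutant values lay below all labelled-control values. The change was -0.51 (SE 0.10, 95% confidence interval -0.73 to -0.29), or 1.42-fold lower (limma, adjusted p = 0.0176). The same brightest probe set missed the threshold without labelled-control array 2 (adjusted p = 0.0642), labelled-mutant array 2 (0.0834) or labelled-mutant array 3 (0.0895), and with floored signals (0.0769), in each case with a change between -0.51 and -0.49. A dim second probe set of Foxf2, with group means of 4.38 and 4.33, had a change of -0.05, and the mean of both gave -0.28 (adjusted p = 0.125).

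Foxf1, the paralogue of Foxf2 and a regulator of mesenchyme next to endoderm, read 10.23, 10.03 and 9.66 in the labelled-control arrays and 9.70, 9.56 and 9.51 in the labelled-mutant arrays. The groups overlapped only through labelled-control array 3. The change was -0.38 (SE 0.14, 95% confidence interval -0.70 to -0.07) and did not pass (limma, adjusted p = 0.178). Without labelled-control array 3 it was -0.54 and passed (adjusted p = 0.0248). The second probe set of Foxf1, at 6.34 and 6.39, had a change of 0.05.

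Foxd1, a marker of mesenchyme and stroma, read 11.32, 11.63 and 10.92 in the labelled-control arrays and 10.67, 10.80 and 10.94 in the labelled-mutant arrays. Labelled-control array 3 lay among the labelled-mutant arrays and the other 2 above them. The change of -0.49 (SE 0.17, 95% confidence interval -0.86 to -0.11) did not pass (limma, adjusted p = 0.154), and without labelled-control array 3 it was -0.67 (adjusted p = 0.0241). Foxd2, its relative in the same class, read 9.17, 8.97 and 8.56 against 8.71, 8.72 and 8.70. Its labelled-mutant arrays had an SD of 0.0074 (n = 3) and lay inside the labelled-control range. The change of -0.19 (SE 0.14) did not pass (limma, adjusted p = 0.518), and a dim second probe set at 4.95 and 5.06 had a change of 0.11.

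The C class had the 2 positive signs. Foxc2, a regulator of skeletal and vascular mesenchyme, read 9.45, 9.38 and 8.90 in the labelled-control arrays and 9.59, 9.67 and 9.58 in the labelled-mutant arrays. Every labelled-mutant value lay above every labelled-control value. The change of 0.37 (SE 0.14, 95% confidence interval 0.05 to 0.68) did not pass (limma, adjusted p = 0.204) and was 0.19 without labelled-control array 3. Foxc1, needed for skull and eye development, read 8.92, 8.73 and 8.10 against 8.59, 8.78 and 8.91. Its groups overlapped over most of their range, and the change of 0.17 (SE 0.19; limma, adjusted p = 0.703) became -0.07 without labelled-control array 3. Its second probe set, at 7.44 and 7.49, had a change of 0.05.

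In the L class neither gene passed. Foxl2, a regulator of ovary and eyelid development, read 7.95, 7.80 and 8.41 in the labelled-control arrays and 7.84, 7.71 and 7.80 in the labelled-mutant arrays. Only labelled-control array 3 stood apart, on the high side. The change was -0.27 (SE 0.14; limma, adjusted p = 0.364) and -0.10 without that array. A dim second probe set at 4.09 and 4.26 had a change of 0.17, without overlap of the groups. Foxl1, a gene of gut mesenchyme, read 5.45, 5.25 and 5.31 against 5.14, 5.07 and 5.31. These values lay below the array median of 5.81, where signals hold much background, and the change of -0.16 (SE 0.09) did not pass (limma, adjusted p = 0.399).

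**Figure D2:**
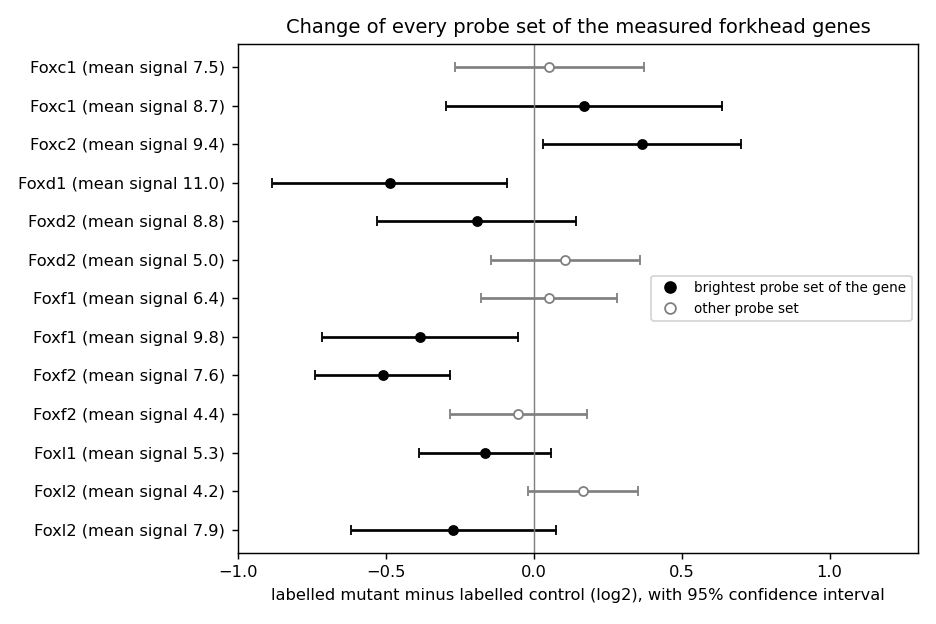
Change of each of the 13 probe sets (horizontal axis, log2, labelled mutant minus labelled control) with its 95% confidence interval from a fit over all probe sets, and the mean signal of the probe set beside its gene. Filled symbols are the probe sets that stand for a gene, and the dimmer probe sets of Foxf2, Foxf1, Foxd2 and Foxl2 (open) lie nearer to 0 than the brighter ones.

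In the fit over all 45101 probe sets, where 2.14% passed, 1 of the 13 forkhead probe sets passed, again that of Foxf2 (limma, adjusted p = 0.0446). For Foxd2, Foxf1 and Foxl2 the bright probe set had a negative and the dim one a positive change, none of them past the threshold. Thus the direction for these 3 genes rests on 1 probe set each.

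Labelled-control array 3 was the lowest of its group for 6 of the 8 genes, Foxc1, Foxc2, Foxd1, Foxd2, Foxf1 and Foxf2, while it was the lowest for 26.6% of all genes. The SD was larger among the labelled-control than among the labelled-mutant arrays for 7 of the 8 genes, against 67.9% of all genes, with a median SD of 0.31 and 0.08 over the 8 genes. Without this array 3 of the 8 passed, all lower (Foxd1, Foxf1 and Foxf2), where 4.82% of all genes passed (1.29% higher and 3.53% lower). Of 7 epithelial markers (such as Epcam and Cdh1), the mean log2 signal in this array was 9.49, against 8.81 and 8.84 in the other labelled-control arrays and 8.99 to 9.18 in the labelled-mutant arrays. Of 7 mesenchymal markers (such as Prrx1 and Twist1), it was 11.24, against 11.05 and 11.06 in the other labelled-control arrays and 10.94 to 11.12 in the labelled-mutant arrays. Their part in the forkhead values was not tested.

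Markers of some other cell types differed between the groups as well. Of 4 skeletal muscle markers 3 fell, and their mean signal was 7.80 to 8.23 in labelled-control arrays and 6.12 to 7.38 in the labelled-mutant arrays. Of 5 neuronal markers 4 fell, from 7.56 to 7.68 in the labelled-control to 6.06 to 6.47 in the labelled-mutant arrays. Of the 7 mesenchymal markers 3 fell (Pdgfra, Col1a1 and Col3a1), Msx1 rose and 3 did not pass. Of 7 pharyngeal endoderm markers, Pax1 fell by 2.10 and 6 did not pass. The mean signal of these 7 was 6.44 to 6.49 against 6.11 to 6.14, but 4 of the 7 changes were positive and their median was 0.02. None of 5 endothelial markers passed with limma or had an unadjusted p under 0.05, with signals of 7.57 to 7.91 and 7.70 to 7.84. Of the remaining lists, 1 of 7 epithelial markers rose (Krt8), 1 of 5 smooth muscle and pericyte markers fell (Acta2; 8.29 to 8.65 against 8.33 to 8.55), 1 of 3 glial markers fell (Sox10; 7.31 to 7.70 against 6.95 to 7.13), 1 of 4 macrophage markers fell (Ptprc; 7.03 to 7.28 against 6.70 to 6.99), and none of 3 erythroid markers passed with limma, 1 having an unadjusted p under 0.05 (11.84 to 12.44 against 11.68 to 11.94). Their part in the forkhead changes was not tested either.

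In both clusters the Foxc gene had a positive and the Foxf gene a negative change, and the difference between them within an array is given here as a description. The pairs were chosen after these signs were seen, so no test is given, and separate groups follow in part from the choice. The signal of Foxc1 minus that of Foxf2 within an array was 0.91, 0.89 and 0.41 in the labelled-control arrays and 1.18, 1.47 and 1.61 in the labelled-mutant arrays. The signal of Foxc2 minus that of Foxf1 was -0.78, -0.65 and -0.77 in the labelled-control arrays and -0.11, 0.11 and 0.06 in the labelled-mutant arrays. All labelled-mutant differences lay above all labelled-control differences in both clusters. The groups did not overlap for 24.9% of single genes, a share that is no background for differences of 2 genes chosen by sign. The level of such a difference has no meaning of its own, since it sets 2 probe sets side by side. The difference shifted by 0.68 for Foxc1 and Foxf2 and by 0.75 for Foxc2 and Foxf1. Without labelled-control array 3 the shifts were 0.52 and 0.73, and with probe sets averaged per gene 0.39 and 0.53. The pairs with the noncoding genes described next were chosen in the same way and are also given without a test.

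**Figure D3:**
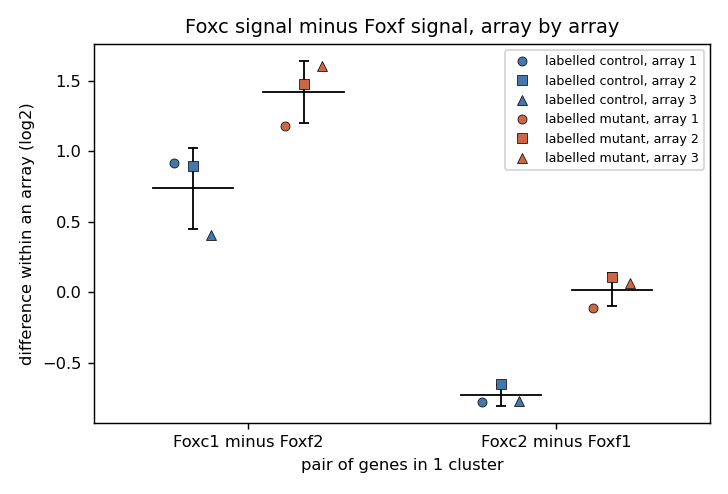
Log2 signal of a Foxc gene minus that of the Foxf gene of its cluster in each of the 6 arrays (vertical axis), with the mean as a bar and the SD as an error bar (n = 3 per group). For both pairs all 3 labelled-mutant arrays lie above all 3 labelled-control arrays, by 0.68 and 0.75 on average.

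Beside the forkhead genes, noncoding genes at 2 loci passed and no protein-coding neighbour did. Of the 11 protein-coding neighbours that are no forkhead genes (Gmds, Mthfsd, Btf3, Tmem174, Trabd2b, Xpa, Trmo, Irf8, 1700018B08Rik, Prr23a3 and Faim), none passed with limma, where 5.53% of all genes did. For 2 of the 11 (Trmo and Irf8) the unadjusted p was under 0.05, against 18.7% of all genes. The 11 changes ran from -0.07 for Gmds to 0.37 for Trmo (adjusted p = 0.0509). Irf8, an interferon regulatory factor beside Foxf1, had a change of 0.28 (adjusted p = 0.163). Of the noncoding genes directly beside a forkhead gene 4 were measured, and 2 of them fell, both picked out after their values were seen. Gm9828 beside Foxd1 and 1700018A04Rik beside Foxf2 had changes of 6.67e-04 and -0.18 and did not pass.

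Fendrr, a long noncoding RNA transcribed away from Foxf1, read 8.38, 8.20 and 8.05 in the labelled-control arrays and 7.78, 7.65 and 7.81 in the labelled-mutant arrays. The groups did not overlap, and the change was -0.46 (SE 0.10; limma, adjusted p = 0.0332), beside -0.38 for Foxf1. The difference between Fendrr and Foxf1 within an array shifted by -0.08, less than its SD within either group (0.131 and 0.126, n = 3 each). The call was lost with median centring (adjusted p = 0.0738), with floored signals (0.102) and without any array other than labelled-control array 3 (0.0604 to 0.147).

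Foxl2os, whose start site lies 297 bases from that of Foxl2 on the opposite strand, shares 204 bases of its upstream window with the Foxl2 window printed above. It read 7.12, 7.29 and 7.69 in the labelled-control arrays and 6.73, 6.56 and 6.54 in the labelled-mutant arrays. The groups did not overlap, whereas those of Foxl2 did at its brightest probe set. The change was -0.75 (SE 0.14; limma, adjusted p = 0.0169), or 1.69-fold lower. Foxl2os minus Foxl2 within an array was -0.83, -0.51 and -0.72 against -1.11, -1.14 and -1.26, a shift of -0.48 with no overlap. The call of Foxl2os was lost with floored signals (adjusted p = 0.106), without labelled-control array 2 (0.0578) and without labelled-mutant array 2 (0.0739) or 3 (0.0800).

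**Figure D4:**
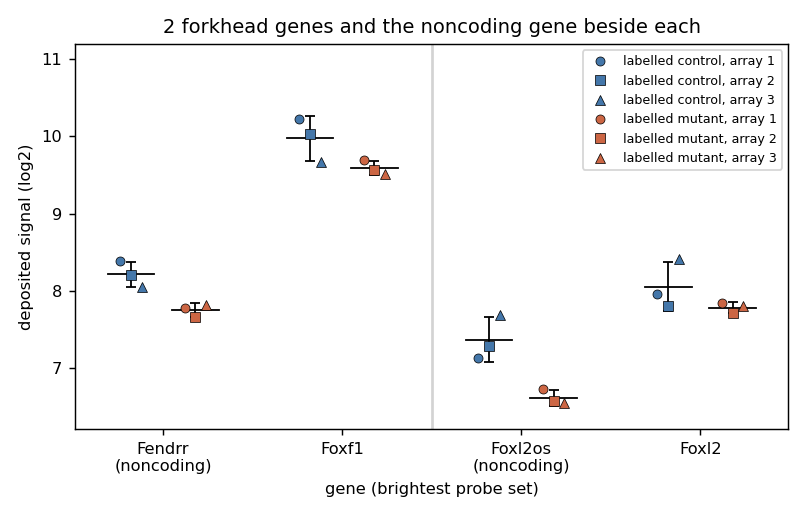
Deposited log2 signal (vertical axis) of Fendrr and Foxf1 and of Foxl2os and Foxl2, with 1 symbol per array, the mean as a bar and the SD as an error bar (n = 3 per group). The groups separate for both noncoding genes, which fell by 0.46 and 0.75, and overlap for Foxf1 and Foxl2.

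Of 29 other forkhead genes measured none passed with limma, where 5.53% of all genes did. For 7 of the 29 the unadjusted p was under 0.05, against 18.7% of all genes. The groups did not overlap for 8 of the 29, against 24.9% of all genes. The 29 changes ran from -0.42 for Foxa1, a pioneer factor of endoderm (adjusted p = 0.0949), to 0.34 for Foxe3, the lens gene beside Foxd2 (adjusted p = 0.225), with a median of 0.03. Foxe3 read 5.48, 5.51 and 6.01 against 6.03, 5.95 and 6.05, and without labelled-control array 3 its change of 0.52 passed (adjusted p = 0.0132). Foxq1, beside Foxf2, had a change of -0.19 (SE 0.14; adjusted p = 0.531) at signals near the array median, and of -0.41 with the mean of its probe sets (adjusted p = 0.0610). With the members included, 1 of 37 forkhead genes passed, Foxf2, beside 5.53% of all genes.

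Of 19 measured genes of the Hedgehog pathway, 3 fell and none rose with limma, and 16 did not pass. The share past the threshold was 15.8%, beside 5.53% of all genes (4.3% lower). At an unadjusted p under 0.05 there were 7 of 19, 1 of them higher, against 18.7% of all genes. The groups did not overlap for 7 of 19 (2 higher and 5 lower), against 24.9% of all genes. The median change of the 19 was 0.05, beside 0.02 over all genes. The 3 that fell were Boc, Cdon and Gli1, while Ptch1, Smo, Hhip and Gas1, which also receive the signal or respond to it, did not pass. Gli1, a transcription factor that is itself a target of the pathway, read 8.74, 8.45 and 8.56 in labelled-control arrays and 8.18, 8.19 and 8.11 in the labelled-mutant arrays. The groups did not overlap, and the change was -0.43 (SE 0.09; limma, adjusted p = 0.0308). The call of Gli1 was lost with median centring (adjusted p = 0.0643), with floored signals (0.0855), and without labelled-control array 3 (0.0586) or labelled-mutant arrays 1 (0.0784), 2 (0.106) or 3 (0.142). In the fit over all probe sets the only probe set of Gli1 did not pass (limma, adjusted p = 0.0719).

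The co-receptor gene Boc fell by 1.45 (SE 0.16; limma, adjusted p = 0.00145), from 8.92 to 7.47, and a second bright probe set fell by 1.83, while the dimmest at 3.37 had a change of 0.00467. Its relative Cdon fell by 0.58 (SE 0.09; limma, adjusted p = 0.00617), from 10.29 to 9.71. A dimmer probe set of Cdon, at 6.49 and 6.57, had a change of 0.09 that did not pass, with all labelled-mutant values above all labelled-control values. With the mean of its probe sets, Cdon missed the threshold (adjusted p = 0.0694). The third co-receptor, Gas1, had a change of -0.30 without overlap of the groups (adjusted p = 0.0593). It passed under 4 of 13 alternatives (limma, lowest adjusted p = 0.0148). A second probe set of Gas1, at 11.46 and 11.05, had a change of -0.40, also without overlap. The dimmest, at 6.66 and 6.79, had a change of 0.12 with overlap. None of its probe sets passed in the fit over all probe sets.

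Other pathway genes did not pass. Shh, the ligand made by the epithelium, read 9.66 and 9.59, a change of -0.07 (adjusted p = 0.824). Ptch1, the receptor and a direct target, read 12.07, 12.06 and 11.55 against 12.02, 11.84 and 11.97, a change of 0.05 (adjusted p = 0.898), with labelled-control array 3 again the lowest. Hhip, another target, had a change of 0.09 (adjusted p = 0.824). Of the others, Scube3 (-0.26), Ihh (0.21), Disp1 (-0.26) and Gli3 (0.18) had the largest test statistics among those that did not pass. The signs of Shh, Ptch1 and Hhip turned under some alternatives, Shh to 0.00400 with median centring and Ptch1 to -0.12 without labelled-control array 3.

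**Figure D5:**
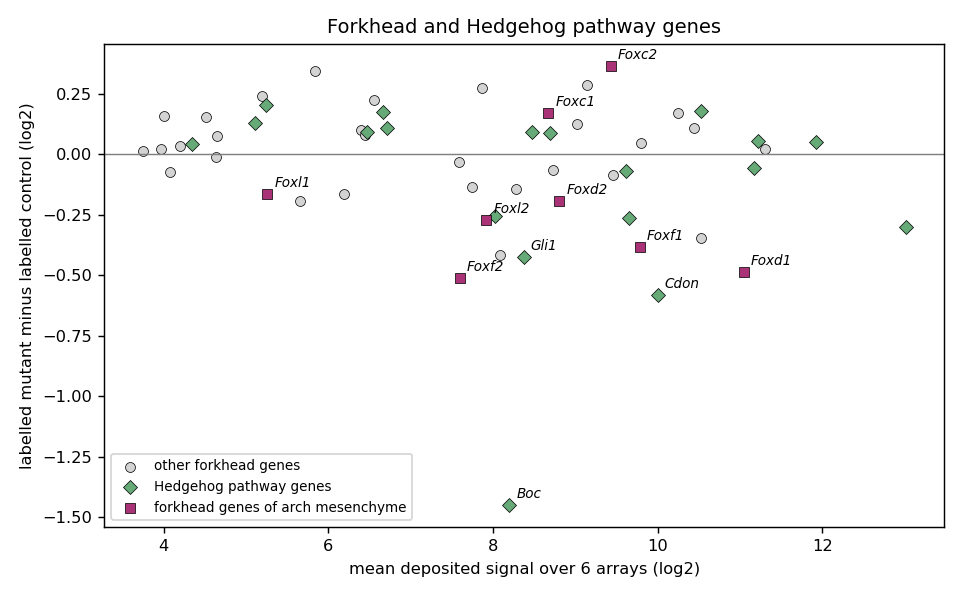
Change (vertical axis, log2, labelled mutant minus labelled control) against mean signal over 6 arrays (horizontal axis, log2) for 8 forkhead genes of the arch list, 29 other forkhead genes and 19 Hedgehog pathway genes. Names mark the arch list and every gene that passed, and the lowest points are Boc at -1.45 and Cdon at -0.58.

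The genes whose profiles were nearest to each forkhead gene were found by the root mean square difference over the 6 arrays after centring each gene on its mean, among genes brighter than the array median. For Foxf2 these were the sodium channel gene Scn8a (0.0380), Rfx5, a regulator of major histocompatibility class II genes (0.0402), and Pnmal2 (0.0449), which passed with changes of -0.56, -0.50 and -0.49, values that the choice itself brings near that of Foxf2. For Foxf1 they were Spopl (0.0755), Fbxl16 (0.0759) and Ankrd24 (0.0772). Foxd1 was nearest to the zinc-finger gene Tshz1 (0.0906), the kinesin gene Kif26a (0.0961) and Homer2 (0.0996), and Foxd2 to Carf (0.0517), Mid1ip1 (0.0592) and Tspyl5 (0.0616). Foxc2 was nearest to Zfp281 (0.0756), B130024G19Rik (0.0782) and Zbtb10 (0.0787). Foxc1 was nearest to Csnk2a2 (0.0719), Rbm45 (0.0860) and Synj2bp (0.0865), all 3 low in labelled-control array 3. Foxl2 was nearest to Ccdc82 (0.0436), Sirpa (0.0526) and Tbc1d8b (0.0550), all 3 high in labelled-control array 3. Since Foxc1 was itself low and Foxl2 high in that array, the choice brings this likeness with it. None of the 7 forkhead genes was among the nearest 3 of another, an absence that says little, since the nearest 3 were drawn from 11579 genes.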

How the data were processed

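Biotin-labelled total RNA was hybridised, per the labels, to Affymetrix arrays of 1 colour. The deposited signals, 1 for each probe set on each array, were taken to be log2 values from their range of 2.63 to 14.68. The median over the probe sets of all 6 arrays together, called the array median here, was 5.81. Whether the 6 arrays shared 1 distribution was not tested. How the background was corrected and the probes summarised, and with which software, is not given in the sources used here. A common distribution would hide a shift of all genes, and the number of arrays limits precision.

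Gene symbols came from the platform's annotation of 2016 (34958 with 1 symbol, 932 with several, 9211 with none). Neighbouring genes were taken from the RefSeq table of GRCm38.p6. The 18194 genes were fitted with limma 3.58.1 (R 4.3.3; lmFit, eBayes, no covariate, no filter, two-sided, Benjamini-Hochberg). The procedure was tested on simulated data. Floored signals are signals below each array's 20th percentile raised to it. Members and lists were chosen with earlier results of these data known. Named by rule were the members, up to 10 other forkhead genes that passed, Foxq1 and Foxe3, Shh, Ptch1, Gli1, Hhip and the 5 other Hedgehog genes with the largest statistic, genes next to members, the 3 nearest profiles, Ezh2, Xist and Kdm5d; Hoxa9, Fendrr, Foxl2os, the other noncoding neighbours and example genes were added after values were seen.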

Additional observations from a re-analysis of the deposited data

How the results depend on the processing

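The count of all genes past the threshold was 1007 (5.53%), against 657 with a replicate block, 329 with floored signals, 811 with the mean of probe sets, 1032 with trend and robust, 1154 with median centring, 1300 with array weights and 435 to 1021 when 1 array was left out. With a filter on dim genes it was 598 of 9097 tested, a larger share (6.57%). The count of forkhead members past it was 1, against 0 with floored signals, 0 with the mean of probe sets and 0 to 3 when 1 array was left out. It was 0 without labelled-control array 2, labelled-mutant array 2 or labelled-mutant array 3, and 3 without labelled-control array 3. For the other forkhead genes the count was 0, and 0 to 2 when 1 array was left out (1 without labelled-control array 1, 2 without labelled-control array 3). For the Hedgehog genes it was 3, and 2 to 4 under the alternatives. Of 103 member values under alternatives, 95 kept their direction and side of the threshold, 5 (Foxf2) lost the call, 2 (Foxd1 and Foxf1) gained it and 1 (Foxc1) changed sign. Deviations from the group means correlated at -0.21, -0.12 and -0.07 between arrays of the same replicate number, and at -0.08 to 0.19 between different numbers. With 3 arrays per group, these values cannot show whether the replicate numbers pair the arrays. For 143 genes named or counted in the text, calls were compared without and with the block, which was fitted over all genes. Of the 28 that passed without it, 9 did not pass with it: Fendrr (adjusted p = 0.0713), Gli1 (0.0710), Acta2, Actc1, Krt8, Myod1, Ptprc, Sox10 and Stmn2. The 7 of these that are cell type markers had 0.0521 to 0.103. Fbxl16 passed only with the block (0.0490). The comparison of calls for these genes was chosen after seeing the data. Foxl1 and the dim second probe sets of Foxd2, Foxf2 and Foxl2 lie where background limits what a change can show.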
